A study of Homo sapiens with 20 samples.

Results

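Oxygen sensing and the bHLH-PAS transcription factors were followed through 10 genes: EPAS1 (which encodes HIF2α), HIF1A, HIF3A, ARNT, ARNT2, CLOCK, NPAS2, EGLN1, EGLN3 and VHL. A peak was assigned to a gene when it overlapped, by at least 1 bp, the GRCh37 gene body or the 10 kb to either side of it. This rule took 35 of the 12171 peaks in 4 peak lists, 27 from HIF2α lists and 8 from BMAL1 lists. It found a peak at 7 of the 10 genes and none at ARNT2, NPAS2 and VHL.

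The study profiled chromatin association of BMAL1 and HIF2α by CUT&RUN, in which a nuclease tethered to an antibody releases nearby DNA for sequencing. The cells were A498, a line from clear cell renal cell carcinoma (ccRCC) that lacks functional VHL, infected with lentivirus carrying a scramble shRNA (shCNT, genotype labelled WT) or an shRNA against BMAL1 (shBMAL1, labelled BMAL1 knockdown) and kept under puromycin selection. The 20 libraries comprise 4 for BMAL1 and 4 for HIF2α under each shRNA, and 2 for IgG under each. Called peaks were analysed from 1 list per BMAL1 and HIF2α group and from none for IgG, so every list is unreplicated, no difference between lists could be set against replicate spread, and no p-value is given.

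The BMAL1 lists held 2350 peaks (shCNT) and 4261 peaks (shBMAL1), and the HIF2α lists 2361 and 3199. The number of BMAL1 peaks thus ran against the knockdown label, while the share of BMAL1 peaks with an E-box in the 200 bp around the summit ran with it, at 11.1% in shCNT and 4.32% under shBMAL1. BMAL1 protein was not measured in these lists, and shBMAL1 stands for the label throughout. Background, used here in place of read depth, differed as well. The genome-wide background, in fragments per position, was 0.168 and 0.0839 in the BMAL1 lists and 0.209 and 0.109 in the HIF2α lists, shCNT first, and the smallest pileup called was 4 under shCNT and 3 under shBMAL1 with either antibody. Pileup is the number of fragments stacked at the peak summit, recovered from the deposited fold and p-value.

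HIF α subunits (HIF1α, HIF2α and HIF3α) pair with ARNT or ARNT2 and bind hypoxia response elements (HREs), while BMAL1 pairs with CLOCK or NPAS2 and binds E-boxes. All of these proteins share bHLH-PAS domains. When oxygen is present, the prolyl hydroxylases encoded by EGLN1 and EGLN3 (PHD2 and PHD3) mark HIF α subunits for VHL, the substrate receptor of a ubiquitin ligase, which has them destroyed. EGLN1 and EGLN3 are themselves known targets of HIF in many cells, and loss of VHL, the founding lesion of most ccRCC, leaves HIF2α stable.

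The sequences at the summits carry much of what follows and are given first, from the GRCh37 + strand, 5′ to 3′. Capitals mark HRE cores, ACGTG or GCGTG read on either strand, and the E-box CACGTG, which contains such a core and is counted with it once. The first 5 lines are 200 bp windows around HIF2α summits called under both shRNAs, from the shCNT list except at 109 kb, where the shBMAL1 summit is shown. The sixth line is the stretch at the EGLN1 start that peaks of 3 lists had in common. The last 2 lines are the BMAL1 sites at the HIF1A start, around the shCNT summit, and 120 bp at the ARNT start, the latter with no capital because no motif was found.
EPAS1 intron, HIF2α summit, chr2:46547552-46547751: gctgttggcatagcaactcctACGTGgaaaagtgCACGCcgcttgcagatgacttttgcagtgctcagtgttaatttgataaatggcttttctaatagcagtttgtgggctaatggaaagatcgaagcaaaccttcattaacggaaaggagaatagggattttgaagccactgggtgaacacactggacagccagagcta
HIF1A downstream, HIF2α summit, chr14:62217873-62218072: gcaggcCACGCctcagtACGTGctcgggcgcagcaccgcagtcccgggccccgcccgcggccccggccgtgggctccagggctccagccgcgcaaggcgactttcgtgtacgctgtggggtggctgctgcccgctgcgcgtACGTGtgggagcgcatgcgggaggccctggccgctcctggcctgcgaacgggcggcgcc
EGLN3 at 84.8 kb upstream, HIF2α summit, chr14:34504952-34505151: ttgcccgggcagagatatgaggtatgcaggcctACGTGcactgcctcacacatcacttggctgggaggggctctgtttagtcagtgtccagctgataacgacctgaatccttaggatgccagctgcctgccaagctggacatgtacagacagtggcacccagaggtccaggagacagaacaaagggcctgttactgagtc
EGLN3 at 109 kb upstream, HIF2α summit, chr14:34529529-34529728: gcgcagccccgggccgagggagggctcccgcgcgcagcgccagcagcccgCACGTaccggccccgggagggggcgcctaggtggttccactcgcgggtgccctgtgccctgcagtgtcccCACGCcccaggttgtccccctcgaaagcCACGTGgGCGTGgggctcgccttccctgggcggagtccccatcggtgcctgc
EGLN3 at 113 kb upstream, HIF2α summit, chr14:34532838-34533037: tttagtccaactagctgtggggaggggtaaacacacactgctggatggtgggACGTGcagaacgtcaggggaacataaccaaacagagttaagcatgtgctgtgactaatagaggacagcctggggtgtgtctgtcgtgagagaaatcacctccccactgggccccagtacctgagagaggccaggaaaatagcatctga
EGLN1 start, shared by 3 lists, chr1:231558264-231558350: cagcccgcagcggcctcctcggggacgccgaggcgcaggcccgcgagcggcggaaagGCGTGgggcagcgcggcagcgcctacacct
HIF1A start, BMAL1 summit, chr14:62161899-62162098: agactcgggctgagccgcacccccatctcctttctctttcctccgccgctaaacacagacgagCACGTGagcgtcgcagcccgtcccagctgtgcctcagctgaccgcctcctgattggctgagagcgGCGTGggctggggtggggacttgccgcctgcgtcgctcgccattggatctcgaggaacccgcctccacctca
ARNT start, BMAL1 peaks, chr1:150849190-150849309: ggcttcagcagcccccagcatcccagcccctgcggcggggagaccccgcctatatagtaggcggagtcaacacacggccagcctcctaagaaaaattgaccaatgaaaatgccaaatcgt
In the EPAS1 and HIF1A windows a pair of cores lay close together, separated by 8 bp at EPAS1 and by 6 bp at HIF1A. At EGLN3 109 kb upstream an E-box was followed after 1 bp by a further core. The other EGLN3 windows each held 1 core.

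Among the α subunit genes, HIF2α peaks were present at EPAS1, HIF1A and HIF3A, and BMAL1 peaks at HIF1A alone. EPAS1 had 2 peaks in the shCNT HIF2α list and 3 in the shBMAL1 HIF2α list. Both BMAL1 lists had none, with the nearest BMAL1 summits 658 kb (shCNT) and 203 kb (shBMAL1) from the EPAS1 start. The site found under both shRNAs lay in the first intron of EPAS1, 23.1 kb downstream of the start of its MANE Select transcript, the reference transcript of each gene. Its shCNT peak (chr2:46547155-46547834) had a pileup of 11, a fold enrichment of 9.55 over local background and a rank of 512 of 2361 by −log10 p. Its shBMAL1 peak (chr2:46547495-46547751) had a pileup of 5, a fold of 5.25 and a rank of 1764 of 3199. The summits were 18 bp apart and both windows held the pair of HRE cores shown above, so the same element was recovered at a lower place in the shBMAL1 list.

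The remaining EPAS1 peaks were each called once and were weak. At the EPAS1 start itself the shCNT HIF2α list had a peak 157 bp upstream with a pileup of 5 (interval 1.62 to 11.7, exact Poisson) and a rank of 1983, in a window of 83.5% GC with 1 HRE core. The shBMAL1 HIF2α list had 2 intronic peaks, 18 kb and 28.2 kb downstream, with pileups of 4 and 5 and ranks of 2566 and 1834. Neither window held an HRE core, and both held an AP-1 site (TGACTCA or TGAGTCA). The AP-1 site at 18 kb lay outside the called peak. All intervals on pileups and shares here are at 95% and cover counting error only, not replicate spread, since every list is unreplicated.

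HIF1A, which encodes HIF1α, was occupied by the 2 antibodies at different places. Its strongest peak was a HIF2α peak 55.7 kb downstream of the start, beyond the 3′ end of HIF1A, with a pileup of 16 and rank 233 in shCNT (chr14:62217635-62218190) and a pileup of 13 and rank 295 under shBMAL1 (chr14:62217619-62218103). The summits were 23 bp apart, and each window held 3 HRE cores. The shCNT summit lay 155 bp from the start of the noncoding gene HIF1A-AS3, the nearest annotated start, in an intron of another noncoding RNA, so by position the site was far closer to HIF1A-AS3 than to the HIF1A promoter. A weaker peak in the first HIF1A intron (6.59 kb downstream, pileup 4, rank 2112) was called in shCNT HIF2α only.

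The HIF1A promoter carried BMAL1 peaks in both BMAL1 lists and no HIF2α peak. In shCNT the summit lay 232 bp upstream of the start (chr14:62161986-62162277, pileup 5, rank 1372 of 2350). Under shBMAL1 it lay 4 bp downstream (chr14:62162200-62162464, pileup 5, rank 2109 of 4261). The summits were 236 bp apart. An E-box and a separate core were in the window around the shCNT summit, but the E-box was outside the called shCNT peak, and the shBMAL1 window held no motif. Both peaks fell in the weaker part of their lists, at percentiles of 37.7 and 48.5 by −log10 p.

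HIF3A, whose product is mainly known as a modulator of the other α subunits, had 1 peak in all 4 lists. It was a shBMAL1 HIF2α peak in the first intron, 2.05 kb from the start (chr19:46802329-46802826), with a pileup of 5, rank 2681 and 1 HRE core. The nearest shCNT HIF2α summit was 95.4 kb from the HIF3A start.

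**Figure D1:**
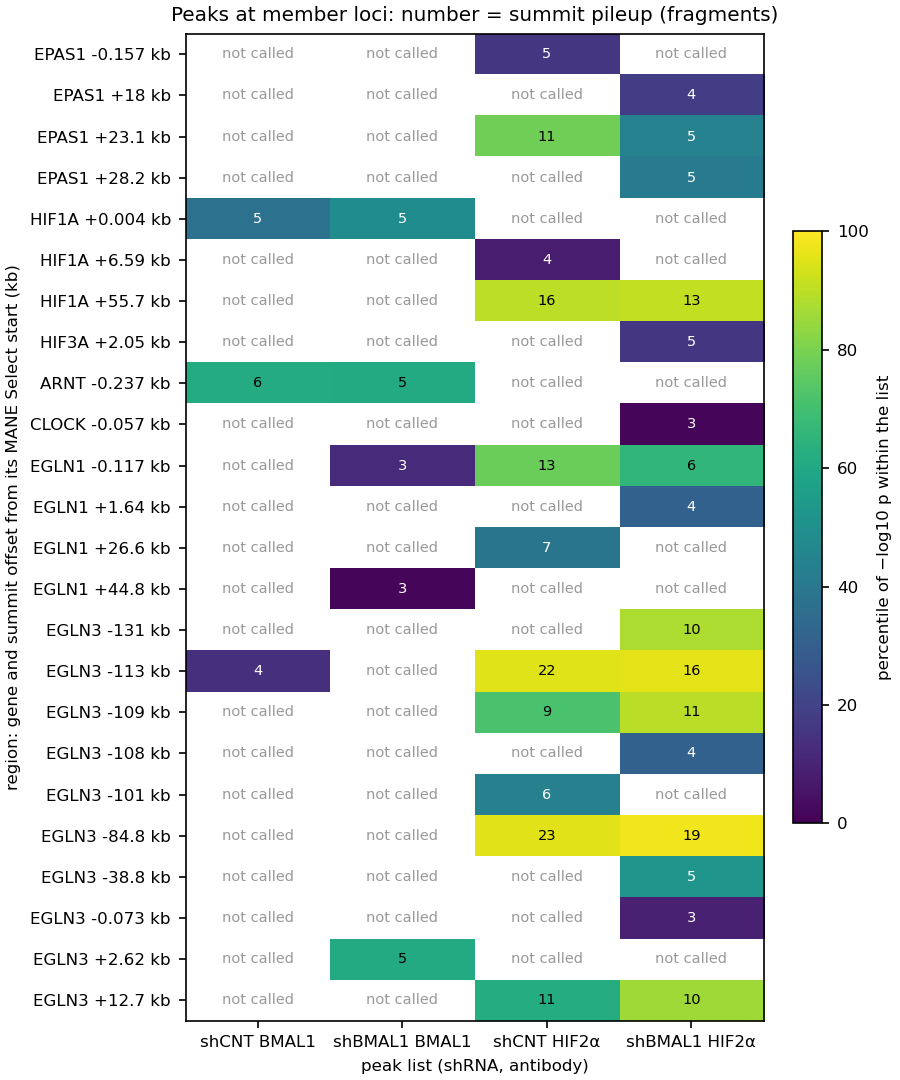
Rows are the 24 regions left after overlapping peaks of the 4 lists were merged, named by gene and by the offset in kb from the MANE Select start (negative is upstream) of the summit with the highest −log10 p, so that the EGLN3 site at 12.5 kb is listed at 12.7 kb; columns are the lists, the number in a cell is the pileup in fragments, and colour is the percentile of −log10 p within the list. The right-hand HIF2α columns hold most of the called cells, 18 regions are called with HIF2α only, and the brightest cells are at EGLN3 and at HIF1A 55.7 kb downstream.

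ARNT, the constitutive partner of the HIF α subunits, was the counterpart of the HIF1A promoter, with a BMAL1 peak at its start under both shRNAs and no HIF2α peak. The shCNT peak (chr1:150849182-150849383) had its summit 0.175 kb upstream of the MANE Select start, a pileup of 6 and rank 833. The shBMAL1 peak (chr1:150849196-150849383) had its summit 0.237 kb upstream, a pileup of 5 and rank 1495, a rank it shared with tied peaks. Neither the windows nor the called peaks held an E-box, an HRE core or an AP-1 site. The nearest HIF2α summits were 132 kb from the ARNT start in both lists.

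ARNT2, the paralogue of ARNT, had no peak in its gene body or within 10 kb of it, nor within 50 kb. The nearest summits to its start were at 244 kb and 252 kb in the BMAL1 lists and at 4738 kb and 2805 kb in the HIF2α lists, shCNT first.

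The genes for the clock partners of BMAL1 were nearly empty. CLOCK had no BMAL1 peak, and the nearest BMAL1 summits were 889 kb (shCNT) and 840 kb (shBMAL1) from its start. Its only peak was a shBMAL1 HIF2α peak 57 bp upstream of the start (chr4:56413018-56413235), with a pileup of 3 (interval 0.619 to 8.77), the smallest called in that list, and rank 3124 of 3199. Its window was 74.5% GC and held none of the 3 motifs. NPAS2, the paralogue of CLOCK, had no peak within 50 kb in any list, and the nearest summits were 244 kb away in shBMAL1 BMAL1 and 257 kb away in both HIF2α lists.

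Of the oxygen sensors, EGLN1 (PHD2, the hydroxylase that sets HIF α levels in most cells) had 6 peaks in 4 regions. The region at its start was called in 3 of the 4 lists. The shCNT HIF2α peak (chr1:231557966-231558557) had a pileup of 13 and rank 527, with its summit 117 bp upstream of the start. The shBMAL1 HIF2α peak (chr1:231557760-231558350) had a pileup of 6 and rank 1006, with its summit 38 bp downstream. The shBMAL1 BMAL1 peak (chr1:231558264-231558456) had a pileup of 3 and rank 3519 of 4261, with its summit 310 bp upstream. A stretch of 87 bp was common to all 3, printed above with its single core. That core lay within 100 bp of the BMAL1 summit but not of either HIF2α summit. Each HIF2α peak held 3 cores over its whole length, and the shBMAL1 HIF2α window held a different one.

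The other 3 EGLN1 regions were in its first intron and each was called once. The shCNT HIF2α peak 26.6 kb downstream had a pileup of 7 and rank 1444. A shBMAL1 HIF2α peak 1.64 kb downstream had a pileup of 4, rank 2001 and an AP-1 site. A shBMAL1 BMAL1 peak 44.8 kb downstream had a pileup of 3 and rank 4156 of 4261. None of these windows had an HRE core or an E-box. At the start, the windows of the shBMAL1 HIF2α and shBMAL1 BMAL1 summits each held 1 core, that of the shCNT HIF2α summit held none, and no window held an E-box.

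EGLN3 (PHD3, a hydroxylase strongly induced by HIF in many cells) held 15 of the 35 peaks. Its MANE Select transcript is 26.8 kb long, but the annotated gene body spans 539 kb (chr14:34393433-34931980, − strand) because longer transcripts start far upstream, and 8 of the 10 EGLN3 regions lay upstream of the MANE Select start. The 4 HIF2α regions called under both shRNAs were 84.8 kb, 109 kb and 113 kb upstream and 12.5 kb downstream of that start, the last in the first intron. These 3 upstream regions lie in introns of EGLN3 transcripts outside the basic gene set, and the nearest annotated start was that of the antisense gene EGLN3-AS1. Which gene they act on was not measured.

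The strongest of all peaks at the 10 genes was the one 84.8 kb upstream. It had a pileup of 23 (interval 14.6 to 34.5) and rank 104 in shCNT HIF2α (chr14:34504384-34505343), and a pileup of 19 (interval 11.4 to 29.7) and rank 71 in shBMAL1 HIF2α (chr14:34504541-34505239). The summits were 128 bp apart, with the same single HRE core in both windows. At 113 kb upstream the pileups were 22 and 16, with ranks of 110 and 122 (chr14:34532611-34533981 and chr14:34532767-34533907). This was the second region shared by the antibodies, since the shCNT BMAL1 list had a peak inside it (chr14:34533151-34533326, pileup 4, rank 1973 of 2350) whose summit lay more than 200 bp from either HIF2α summit. The BMAL1 window held no motif.

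At 109 kb upstream the pileup was 9 in shCNT (chr14:34529426-34529638, rank 662) and 11 under shBMAL1 (chr14:34529204-34530237, rank 314). It was the only 1 of the 7 HIF2α sites called under both shRNAs where the raw pileup was not lower under shBMAL1. Over all 1318 HIF2α peaks called under both shRNAs, the median ratio of raw pileups, shBMAL1 over shCNT, was 0.8. A lower raw pileup is thus not shown to be particular to these genes. The site 109 kb upstream was also the richest in motifs, with 4 HRE cores around either summit and 9 cores over the whole shBMAL1 peak. It held an E-box that fell inside the window of the shBMAL1 summit only. The intronic site 12.5 kb downstream had pileups of 11 and 10 and ranks of 881 and 450, with no motif in either window and 3 cores in the whole shCNT peak.

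The remaining EGLN3 peaks were called in 1 list each. In shCNT HIF2α there was 1, at 101 kb upstream (pileup 6, rank 1269). The shBMAL1 HIF2α list had 4, of which the peak 131 kb upstream stood apart (chr14:34550472-34551485, pileup 10, rank 386), with an HRE core and an AP-1 site in its window. The others were 108 kb upstream (pileup 4, rank 2001), 38.8 kb upstream (pileup 5, rank 1406) and 73 bp upstream (pileup 3, rank 2714). The last is the only peak within 1 kb of the EGLN3 start in any list. A shBMAL1 BMAL1 peak lay 2.62 kb downstream (pileup 5, rank 1495) without a motif.

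**Figure D2:**
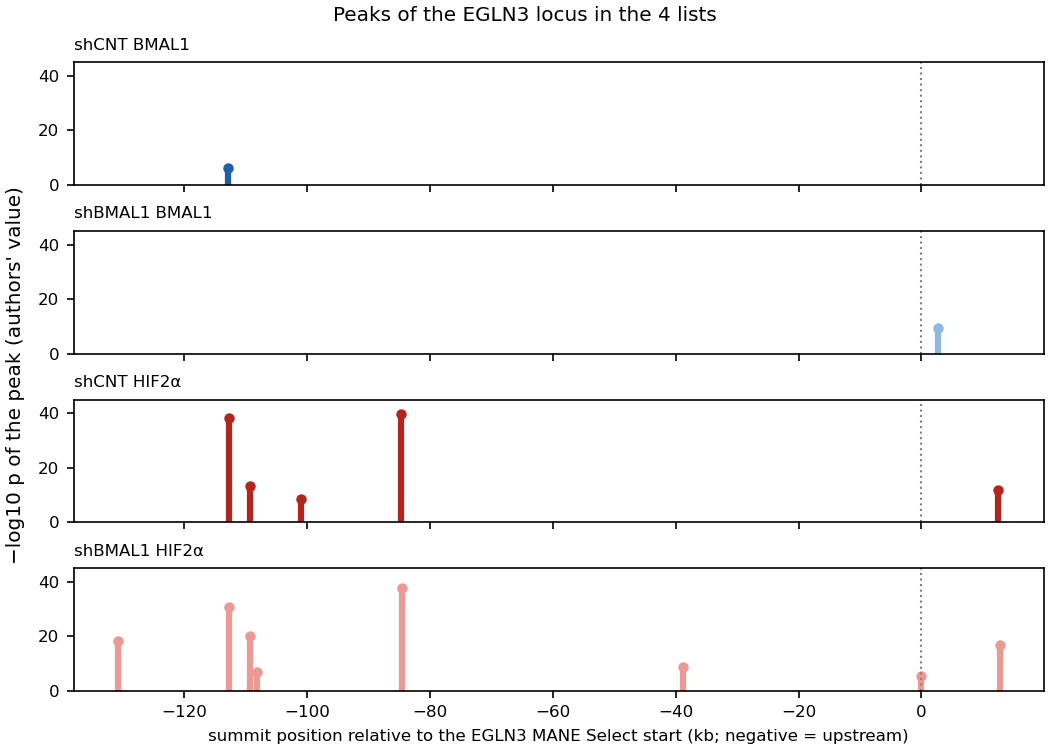
Each panel is 1 list, the horizontal axis is the distance of the summit from the EGLN3 MANE Select start in kb (dotted line; negative is upstream) and the height is the authors' −log10 p of the peak. The HIF2α panels share tall peaks 84.8 kb and 113 kb upstream, and the peak 131 kb upstream appears in the shBMAL1 panel only.

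VHL had no peak within 10 kb in any list. Within 50 kb of the gene only the shBMAL1 lists had peaks. The closest, 32.4 kb from the VHL start for BMAL1 (pileup 6) and 32.3 kb for HIF2α (pileup 4), both had their nearest annotated start at IRAK2, a kinase gene of innate immune signalling.

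Counted over the 10 genes, 3 had a shCNT BMAL1 peak (30%, Wilson interval 10.8 to 60.3), 4 a shBMAL1 BMAL1 peak (40%, 16.8 to 68.7), 4 a shCNT HIF2α peak (40%, 16.8 to 68.7) and 6 a shBMAL1 HIF2α peak (60%, 31.3 to 83.2). Among all 20098 protein-coding genes with the same margins, the shares were 12.9%, 18.6%, 11.4% and 13.6%. The 10 loci are long, with a median of 100 kb against 47.3 kb over all genes, and among the 4540 loci of at least that length the shares were 14.3%, 24.1%, 14.3% and 19.3%. Per Mb of the 10 loci there were 1.93, 3.21, 7.06 and 10.3 peaks, against 0.774, 1.4, 0.778 and 1.05 per Mb genome-wide. Without EGLN3 these densities were 2, 4, 6.01 and 8.01 per Mb, so the HIF2α density did not rest on EGLN3 alone, though 6 and 8 HIF2α peaks remained. The genome-wide densities include sequence between genes, and no density over other long gene loci is given beside them. The genes were picked for their role with earlier results of these data known, and no test was made.

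By position, 13 of the 35 summits lay in introns, 11 in introns of transcripts outside the basic set, 4 in introns of noncoding RNAs, 1 in a noncoding exon, 3 in untranslated exons and 3 between genes, and 0 in coding exons. A summit within 1 kb of any annotated start was found for 2 of 3 shCNT BMAL1 peaks and 3 of 5 shBMAL1 BMAL1 peaks, beside 49.6% and 38.8% of all peaks in those lists. For HIF2α it was 3 of 11 (27.3%, interval 9.75 to 56.6) in shCNT and 5 of 16 (31.2%, 14.2 to 55.6) under shBMAL1, beside 46.5% and 37.3%. HIF2α peaks at these genes were thus mostly distal, as in their lists, and the interval of each share included the share of its list. With loci drawn on the MANE Select transcripts, which leave out distal EGLN3 peaks, the HIF2α shares were 42.9% (3 of 7) in shCNT and 50% (5 of 10) under shBMAL1.

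Presence across the shRNAs was examined next. A shBMAL1 counterpart, overlapping by at least 1 bp, was found for 7 of the 11 shCNT HIF2α peaks (63.6%, interval 35.4 to 84.8), beside 55.8% of the whole list. In the other direction it was 7 of 16 (43.8%, 23.1 to 66.8), beside 41.2%. For BMAL1 these were 2 of 3 shCNT peaks and 2 of 5 shBMAL1 peaks, beside 47.1% and 26.1%. The interval of each share included that of its list, so persistence at these genes did not stand out from the lists.

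In the shCNT lists the sites found under both shRNAs were the stronger ones. The 7 shCNT HIF2α peaks with a shBMAL1 counterpart ranked between 104 and 881 with pileups of 9 to 23. The 4 without ranked between 1269 and 2112 with pileups of 4 to 7, so at these genes the ranges did not overlap. No such ranks over the whole list are given beside these, so the pattern is not shown to be particular to these genes. From the shBMAL1 side the ranges did overlap, with ranks of 71 to 1764 for the 7 shared peaks and of 386 to 3124 for the 9 unshared ones. The BMAL1 peaks shared between shRNAs ranked 833 and 1372 in shCNT, and the unshared peak at EGLN3 ranked 1973. In the shBMAL1 BMAL1 list the order did not hold, since the shared peaks ranked 1495 (ARNT) and 2109 (HIF1A) and the unshared EGLN3 peak 2.62 kb downstream tied with ARNT at 1495.

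Because the genome-wide background, used here in place of read depth, was lower in the shBMAL1 lists, each shared pileup was divided by it. The shBMAL1 value was then set over the shCNT value. At the 7 HIF2α sites this ratio ran from 0.868 to 2.33 with a median of 1.55, beside a median of 1.53 (quartiles 1.19 to 1.91) over all 1318 shared HIF2α peaks. It was 0.868 at EPAS1 23.1 kb downstream (exact conditional interval 0.236 to 2.71) and 0.881 at the EGLN1 start (0.275 to 2.48). At HIF1A 55.7 kb downstream it was 1.55 (0.686 to 3.44). At EGLN3 it was 1.39 at 113 kb upstream (0.681 to 2.77), 1.58 at 84.8 kb (0.812 to 3.03), 2.33 at 109 kb (0.879 to 6.37) and 1.74 at 12.5 kb downstream (0.661 to 4.5). All 7 intervals included 1, so a change between the shRNAs in either direction was not detectable at this depth at any single site. For BMAL1 the ratio was 1.67 at ARNT (0.402 to 6.55) and 2 at HIF1A (0.46 to 8.69), beside a median of 2 over all 1106 shared BMAL1 peaks. Without scaling, the median pileup ratio was 0.8 over all shared HIF2α peaks and 1 over all shared BMAL1 peaks. Both medians thus lay above 1 only after scaling. The yeast spike-in, with which the authors scaled their coverage tracks, was not used here.

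**Figure D3:**
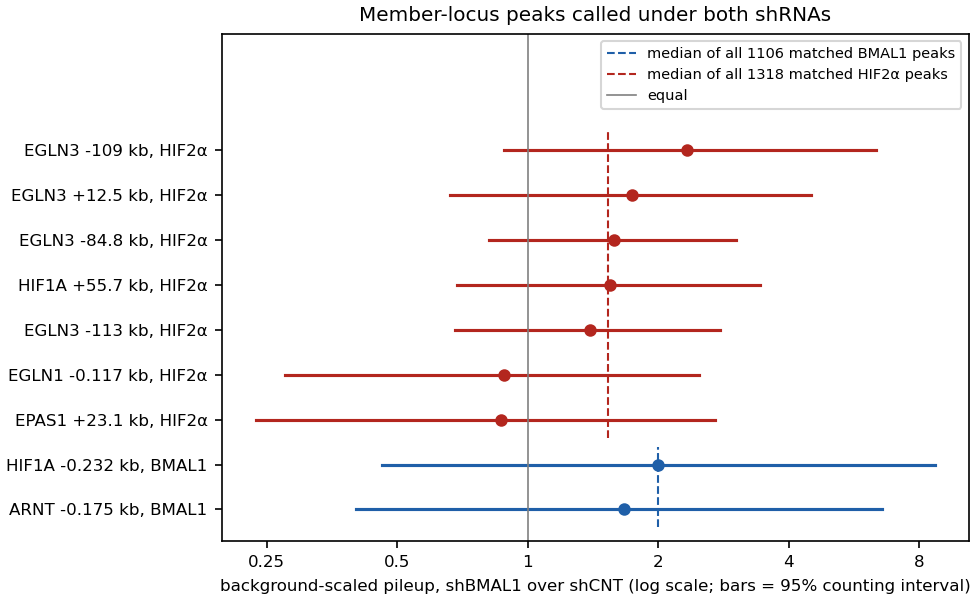
Points are the ratio of background-scaled pileup, shBMAL1 over shCNT, on a log axis for the 9 sites called under both shRNAs, bars are the exact 95% counting intervals, and dashed lines are the medians over all shared peaks of each antibody. Every bar crosses 1, the EPAS1 and EGLN1 points lie below 1 and the other 7 above it.

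Whether an unshared peak could have been called in the other list was described by scaling its pileup with the ratio of the backgrounds. The 4 shCNT HIF2α peaks without a counterpart scaled to between 2.1 and 3.67 fragments, around the smallest pileup of 3 called in shBMAL1 HIF2α. The EPAS1 start (2.62) and the first HIF1A intron (2.1) fell below it, but scaled by the median change of shared peaks they came to 4 and 3.2, above it. The 9 unshared shBMAL1 HIF2α peaks scaled to between 5.73 and 19.1 fragments at the shCNT background, all above the smallest pileup of 4 called there. The EGLN3 peak 131 kb upstream gave the highest value, 19.1 (interval 9.15 to 35.1). By the median change of shared peaks it came to 12.5 (5.99 to 23), and the weakest, at CLOCK and at the EGLN3 start, came to 3.75. The EGLN3 site 131 kb upstream, the highest of the 9, exceeded the smallest shCNT pileup under both scalings, its lower bounds included. The CLOCK and EGLN3 promoter peaks exceeded that pileup under the first scaling and fell below it under the second. All unshared peaks were selected for being called in the list that was scaled, which favours high pileups there. The smallest pileup of a list is also not the calling limit at a given site. A true absence from the other list was therefore not tested for any of these peaks.

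Presence across the antibodies was described in the same way. Of the 24 merged regions, 18 were called with HIF2α only, 4 with BMAL1 only and 2 with both, the EGLN1 start and EGLN3 113 kb upstream. Under the same shRNA, 1 of 11 shCNT HIF2α peaks (9.09%, interval 1.62 to 37.7) and 1 of 16 shBMAL1 HIF2α peaks (6.25%, 1.11 to 28.3) were overlapped by a BMAL1 peak, beside 24.9% and 28.4% of the whole lists. For BMAL1 peaks it was 1 of 3 in shCNT and 1 of 5 under shBMAL1, beside 25% and 21.2%. The intervals included the share of the list for both BMAL1 lists and for shCNT HIF2α, and that of shBMAL1 HIF2α ended at 28.3% beside 28.4%. In both shared regions the BMAL1 peak was weak, with pileups of 4 and 3, and within an shRNA the summits of the 2 antibodies lay more than 200 bp apart. With −log10 p of at least 8, a pileup of at least 5 or summits within 200 bp required, no peak at these genes was shared between antibodies. Shares of the whole lists under these limits are not given beside this. Which control library the caller used is not stated.

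HRE cores were frequent in the HIF2α peaks of these genes, as in the HIF2α lists as a whole. An HRE core was present in the summit window of 7 of 11 shCNT HIF2α peaks (63.6%, interval 35.4 to 84.8) and 9 of 16 shBMAL1 HIF2α peaks (56.2%, 33.2 to 76.9), beside 66% and 59.3% of all peaks in those lists. It was present in 1 of 3 shCNT and 1 of 5 shBMAL1 BMAL1 peaks, beside 48% and 38.4%. In 200 bp windows placed every 20 kb over the genome the core was present in 16.2%, and in windows centred on MANE Select starts in 43.6%. With a window of 100 bp, 4 of the 11 shCNT HIF2α peaks (36.4%) and 2 of the 16 shBMAL1 HIF2α peaks (12.5%) held a core. The list shares above are for 200 bp windows, and none is given for 100 bp, so these counts have no background here.

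The E-box was in the window of 1 of 3 shCNT BMAL1 peaks (HIF1A start), 0 of 5 shBMAL1 BMAL1 peaks, 0 of 11 shCNT HIF2α peaks and 1 of 16 shBMAL1 HIF2α peaks (EGLN3 109 kb upstream), beside 11.1%, 4.32%, 6.4% and 6% of the lists, 1.78% of genome windows and 5.68% of windows at starts. AP-1 sites were in 0 of 3, 0 of 5, 1 of 11 and 4 of 16 windows in the same order, beside 14.2%, 18.3%, 13.6% and 15.5% of the lists, 2.97% of genome windows and 2.08% at starts. The 4 shBMAL1 HIF2α windows with an AP-1 site were at EPAS1 (18 kb and 28.2 kb downstream), EGLN1 (1.64 kb) and EGLN3 (131 kb upstream). At EPAS1 18 kb downstream the site lay outside the called peak. Over whole peaks, the shBMAL1 HIF2α peaks at EGLN3 12.7 kb downstream and 84.6 kb and 109 kb upstream also held an AP-1 site. Their shCNT HIF2α counterparts did so as well, so over whole peaks these shared sites held it under both shRNAs. The single shCNT HIF2α window with an AP-1 site was at EGLN3 109 kb upstream.

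**Figure D4:**
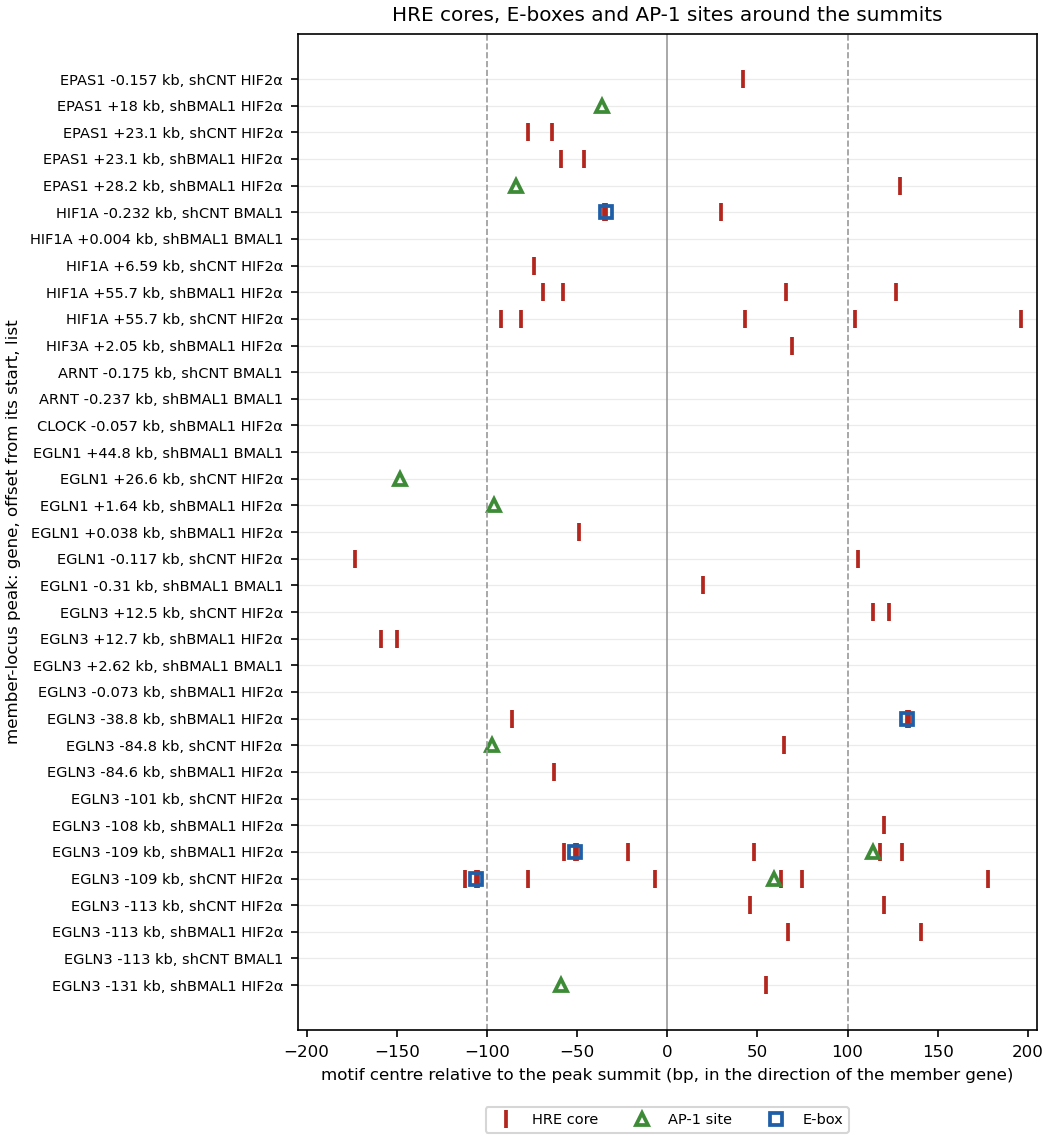
Each row is 1 of the 35 peaks, named by gene, offset from the gene's start and list, and the horizontal axis is the distance of each motif centre from the summit in bp, in the direction of the gene. Red bars are HRE cores, green triangles AP-1 sites and blue squares E-boxes, dashed lines bound the 200 bp window, and E-boxes appear in the rows of the HIF1A start and of EGLN3 109 kb and 38.8 kb upstream only.

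Other genes of oxygen sensing and the bHLH-PAS family were read in the same way. Of 24 such genes, 8 (33.3%) had a shCNT BMAL1 peak, 6 (25%) a shBMAL1 BMAL1 peak, 5 (20.8%) a shCNT HIF2α peak and 2 (8.33%) a shBMAL1 HIF2α peak. Among all protein-coding genes the shares were 12.9%, 18.6%, 11.4% and 13.6% in the same order, so only the last was higher than among the 24. CITED2, which competes with HIF for the coactivator p300, had a HIF2α peak 890 bp upstream of its start in both lists, with pileups of 19 and 13, ranks of 159 and 210 and an HRE core. RBX1, the RING subunit of the VHL ubiquitin ligase, had HIF2α peaks at its start with pileups of 13 and 5 (ranks 439 and 2681) and a shCNT BMAL1 peak of rank 1811. The windows of its shCNT HIF2α and shCNT BMAL1 peaks each held an E-box, and that of its shBMAL1 HIF2α peak held none. BMAL1 peaks under both shRNAs were at the starts of EGLN2 (PHD1, pileups 6 and 7, ranks 1192 and 1296) and ELOC (elongin C, which links VHL to its ligase, pileups 8 and 7, ranks 790 and 884), each with an HRE core. The targeted gene, BMAL1, had 14 peaks in the shCNT BMAL1 list, with the best at rank 1 and a pileup of 834, and 1 in the shBMAL1 list at rank 963 with a pileup of 6. The best lay 94492 bp downstream of the BMAL1 start, with an HRE core and no E-box, in a list with a median pileup of 6. Neither HIF2α list had a peak at this gene, and what the 14 peaks reflect was not tested. The other related genes had a peak in no more than 1 list of either antibody.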

How the data were processed

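Chromatin association was measured by CUT&RUN in A498 cells. Reads were mapped by the authors to hg19 (GRCh37) and to yeast sacCer3 with Bowtie2 2.5.3 and deduplicated. They called peaks with MACS2 2.2.9.1 (p-value limit 1e-05, gaps up to 400 bp) and used bedtools 2.31.1 to filter blacklisted regions, versions being those of the submitters' processing notes. Pooling of replicates and the choice of control are not stated. The deposited fold is the authors' linear ratio of summit pileup to local background. The authors' deposited p-value and q-value are written as −log10, and ranks use the former. No value per replicate was analysed. The 4 lists were grouped by shRNA and antibody in the library titles, and 16 libraries without a list were not analysed here.

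Pileup and background were solved from fold = (pileup + 1) / (background + 1) and the Poisson p-value, which gave a whole number (within 0.001) for 100% of peaks in every list. The lowest background of a list served as its depth, and total read depth per list is not given in the sources used here. Gene bodies and starts came from GENCODE release 44 mapped to GRCh37. The 10 genes, the related genes and the motifs were chosen with earlier results of these data known. All 10 genes were named, peaks that were the strongest of a locus or present in several lists were given in full, and related genes were named when both lists of an antibody had a peak. Shares have Wilson intervals, pileups exact Poisson intervals and ratios exact conditional intervals, all at 95%. The scripts were tested on simulated data with known answers. Alternatives covered margins, p-value and pileup limits, list length, overlap rules, windows and start distance. Computation used Python 3.11.15 with pysam 0.24.0, scipy 1.17.1, numpy 2.4.6, pandas 2.3.3 and matplotlib 3.10.9.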

Additional observations from a re-analysis of the deposited data

How the results depend on the processing

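No paired analysis was possible because each group has 1 list and no values per replicate, and single replicates could not be left out for the same reason. RefSeq gene bodies of this build were not used here, so that alternative was not run. The MANE Select transcript body was chosen as an alternative after seeing the data. Of the values compared, 164 stayed inside the interval of the main value (for counts, within a factor of 1.5), 44 moved and 0 reversed. The intervals are wide, resting on 3 to 16 peaks of a list, and the alternatives largely reuse those peaks. Staying inside them is therefore a weak check. The BMAL1 lists hold 3 and 5 peaks at these genes, so that 1 peak is 33.3% or 20% of them, and pileups of 3 to 5 limit every statement on single weak sites.

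A −log10 p of at least 8 left a peak at 3 member loci in shBMAL1 HIF2α and at 1 in shCNT BMAL1, and left 8 shBMAL1 HIF2α, 3 shBMAL1 BMAL1 and 1 shCNT BMAL1 peaks. The share found under both shRNAs was then 75% (6 of 8) for shBMAL1 HIF2α and 100% (1 of 1) for shCNT BMAL1. The share with an HRE core was 87.5% (7 of 8) for shBMAL1 HIF2α and 0% for both BMAL1 lists, and the share of shCNT BMAL1 peaks with an E-box 0%. No shares of all peaks passing this limit are given, so these values are not shown to be particular to these genes. The share overlapped by the other antibody was 0% in all 4 lists. Neither shared region therefore passed the stricter limit for both antibodies. The overlap with the other antibody was also 0% in all 4 lists with a pileup of at least 5 and with summits within 200 bp, 0% in both shBMAL1 lists with equal list lengths or an overlap of 50% of the shorter peak, 0% for shBMAL1 BMAL1 with the gene body alone, and 0% in both shCNT lists with the MANE Select body.

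The number of shBMAL1 BMAL1 peaks was 3 with the gene body alone, with equal list lengths or with a pileup of at least 5, and 8 with 50 kb to either side. The MANE Select body left 10 shBMAL1 HIF2α and 7 shCNT HIF2α peaks, since distal EGLN3 peaks drop out by construction, and gave 100% of shCNT BMAL1 peaks at a start and 100% found under both shRNAs. The latter share was also 100% with a pileup of at least 5. The HRE share was 0% for shBMAL1 BMAL1 with the gene body alone and 12.5% for shBMAL1 HIF2α in 100 bp windows. The E-box share was 0% for shBMAL1 HIF2α in 100 bp windows or with the MANE Select body, and 0% for shCNT BMAL1 over the whole peak. Shares of the whole lists with a pileup limit, in 100 bp windows or over whole peaks are not given beside these. Where the construction does not show it, the cause was not tested.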
